A study of Nematostella vectensis with 8 samples.

Results

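Nvznf845 (NV2t017877) and sox2 (NV2t018482) are transcription factor genes of the early cnidocyte program of the starlet sea anemone Nematostella vectensis. They were picked by their identifiers and not by a measured value, though with earlier results of these data known. They are 2 of the 24520 genes in the tables. The libraries were mRNA sequencing of whole wildtype gastrulae collected 28 hours after fertilization at 24 °C. In 4 libraries the embryos had been injected with a combination of short hairpin RNAs (shRNAs) against NvfoxE-like, a forkhead transcription factor gene, and in 4 libraries with scramble RNA as the control. About 1000 injected embryos were pooled for each library. The replicates of both groups are numbered 1 to 4, and replicates 3 and 4 carry the library name prefix LA20_3 while replicates 1 and 2 carry LA19_2. All 8 libraries share 1 batch value in the labels, so what the prefix stands for is not known. Injection lowers a transcript and does not delete the gene, and every level is a mean over whole embryos.

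Cnidocytes are the stinging cells of cnidarians, each built around a pressurized capsule with an eversible thread. They descend from neural progenitors that express SOX-family genes. Nvznf845 encodes a zinc-finger protein and is among the earliest regulators known to be specific to cnidocytes. It acts upstream of NvpaxA, a paired-domain factor that turns on genes of the stinging capsule. Sox2 is an HMG-box factor of developing cnidocytes that takes part in the choice between types of stinging cell, and the study's collection of published cnidocyte genes marks sox2 as dependent on Nvznf845. The comparison of the shRNA and control groups addresses whether either gene depends on NvfoxE-like.

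The 8 libraries held 18656270 to 26073612 estimated counts. A count of 0 would allow up to 3 counts, which is 0.104 to 0.184 CPM (counts relative to the TMM-scaled library size) in these libraries, far under either gene. NvfoxE-like (NV2t025991), the targeted gene, was at 7.43, 3.53, 12.2 and 14.6 TPM (a level per transcript length, scaled to 1 total in every library) in shRNA replicates 1 to 4, against 20.0, 6.78, 44.6 and 41.4 TPM in control replicates 1 to 4. Each shRNA library was below its same-numbered control, at 36.7%, 44.9%, 25.3% and 32.2% of that control's CPM. All 6 cnidocyte capsule genes of the collection were detected in all 8 libraries, with a summed level of 1486 to 2314 TPM in shRNA and 1768 to 2750 TPM in control libraries. In whole embryos, fewer cnidocytes and less RNA per cnidocyte cannot be told apart.

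Nvznf845 was expressed in every library, at levels that differed far more between replicate numbers than between the groups. It was at 26.9, 6.30, 80.6 and 68.3 TPM in shRNA replicates 1 to 4, against 19.2, 6.55, 81.6 and 64.0 TPM in control replicates 1 to 4. Replicates 3 and 4 were high and replicate 2 was low in both groups, and the ranges of the groups overlapped almost entirely. The means were 45.5 ± 34.8 TPM in shRNA and 42.8 ± 35.7 TPM in control libraries (SD, n = 4 each). The counts behind these levels were 798, 177, 1818 and 1271 in shRNA libraries, against 473, 247, 1763 and 1459 in controls. On the CPM scale the gene was at 32.8, 10.8, 63.1 and 57.9 in shRNA replicates 1 to 4, against 23.9, 12.7, 68.3 and 59.7 in control replicates 1 to 4. The coefficient of variation of CPM was 58.7% in shRNA and 65.6% in control libraries. Counting error alone, at the mean count of each group, would give 3.14% and 3.19%. The highest control library was 12.5 times the lowest in TPM and 5.38 times in CPM.

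Sox2 was expressed at a like level and was much steadier. It was at 30.6, 14.9, 46.9 and 41.3 TPM in shRNA replicates 1 to 4, against 27.9, 12.6, 53.7 and 41.9 TPM in control replicates 1 to 4. Replicate 2 was again the lowest library of both groups in TPM and replicate 3 the highest, and the groups overlapped. The means were 33.4 ± 14.1 TPM in shRNA and 34.0 ± 17.7 TPM in control libraries (SD, n = 4 each). On the CPM scale sox2 was at 34.9, 23.2, 34.4 and 33.0 in shRNA libraries, against 32.3, 22.8, 42.5 and 36.6 in controls. Its coefficient of variation of CPM was 17.6% in shRNA and 24.8% in control libraries. Counting error alone, at the mean count of each group, would give 3.69% and 3.61%. The highest control library was 4.26 times the lowest in TPM and 1.87 times in CPM. A summed count that is not whole shows that Salmon divided some reads with another gene. With sums within 0.01 of a count taken as whole, this was so in 3 of 4 libraries of each group for Nvznf845, and in 2 of 4 shRNA and 4 of 4 control libraries for sox2.

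**Figure D1:**
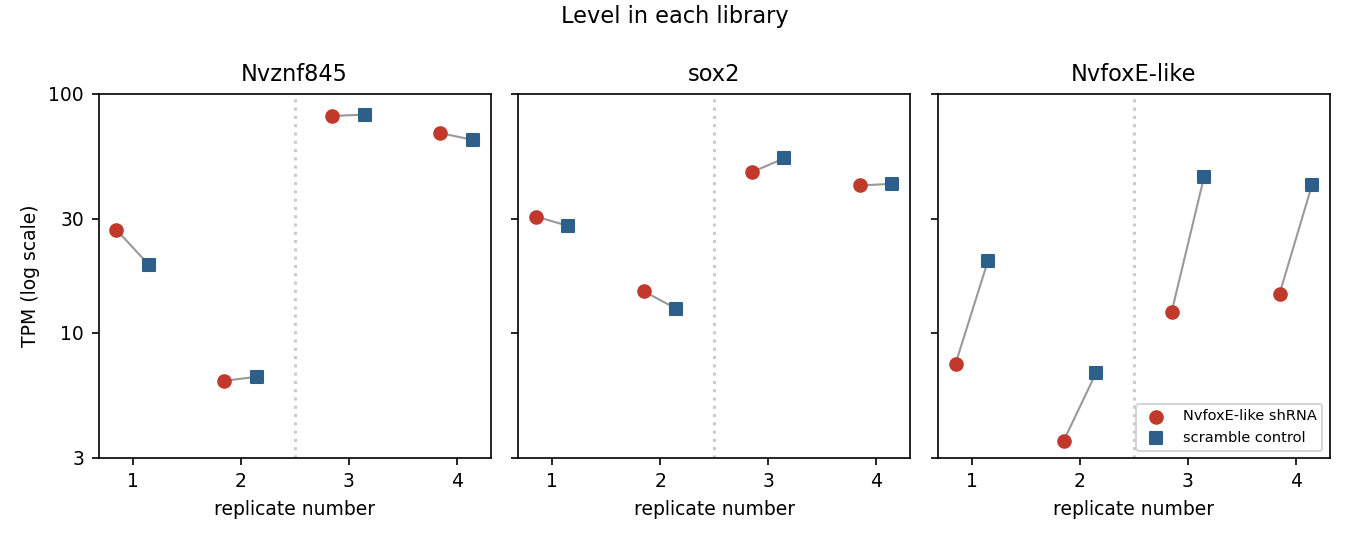
Levels of Nvznf845, sox2 and NvfoxE-like in each library in TPM (log axis), by replicate number, a grey line joining each pair, shRNA libraries left of their same-numbered controls, and a dotted line between replicates 1 and 2 (prefix LA19_2) and replicates 3 and 4 (prefix LA20_3). Nvznf845 spans 6.30 to 80.6 TPM in shRNA and 6.55 to 81.6 TPM in control libraries, and its same-numbered libraries lie close together, while NvfoxE-like is lower with shRNA in all 4 pairs.

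Nearly all of the Nvznf845 signal came from its short transcript, NV2t017877001.1 (1486 bases), which held 96.1% to 99.3% of the gene's TPM in the 8 libraries. The long transcript, NV2t017877002.1 (3098 bases), held 1.48%, 3.95%, 1.45% and 0.989% of it in shRNA replicates 1 to 4, against 2.07%, 1.87%, 0.721% and 1.44% in control replicates 1 to 4. It rested on 10.7 to 61.3 estimated counts per library. Its largest share, in shRNA replicate 2, came from 15.8 of 177 counts, which is 8.91% of the reads with an exact (Clopper-Pearson) interval of 5.26% to 14.3% for counting error only, both counts rounded for the interval. Fitted over all 25102 transcripts tested with the replicate number as a block, the log2 fold change of shRNA over control was 0.0047 ± 0.14 (SE) for the short transcript and 0.28 ± 0.41 for the long one, and neither was called (edgeR's quasi-likelihood test, Benjamini-Hochberg adjusted p = 0.995 and 0.888). Sox2 has the single transcript NV2t018482001.1 (1434 bases).

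Of the 20 transcription factors of the collection, 16 carry an identifier of the tables and the other 4 were not analysed here. Among these 16, Nvznf845 and sox2 stood near the top of the levels per transcript length. FoxA, a forkhead gene best known from the embryonic pharynx and endoderm of animals, came first, with a control mean of 134 TPM. Nvznf845 followed with 42.8 TPM, coup-like1, a nuclear receptor gene, with 42.2 TPM, sox2 with 34.0 TPM, NvfoxE-like with 28.2 TPM and NvpaxA with 28.0 TPM. Nvznf845 was not separated from its lower neighbours by the pools. Both coup-like1 and sox2 were below Nvznf845 in 2 of 4 control libraries and above it in the others. NvfoxE-like was below sox2 in 4 of 4 control libraries. Over all 19002 genes tested, 86.3% had a lower mean level than Nvznf845 and 82.8% a lower one than sox2.

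**Figure D2:**
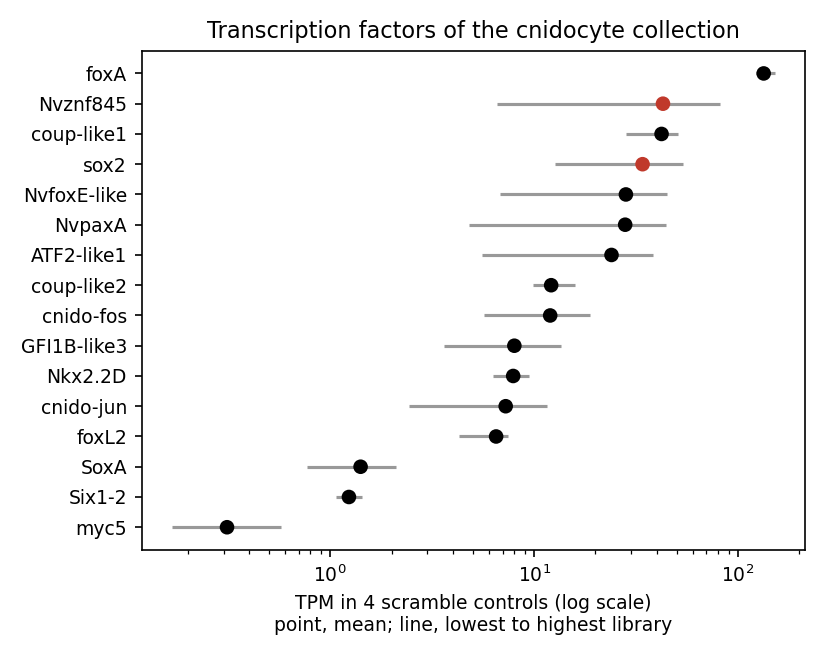
Level in TPM (log axis) of the 16 cnidocyte transcription factors of the collection that carry an identifier, in the 4 control libraries, with a point at the mean, a line from the lowest to the highest library, and Nvznf845 and sox2 in red. Nvznf845 and sox2 lie among the highest factors after foxA, and the line of Nvznf845 spans 12.5 times, from 6.55 to 81.6 TPM.

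The order of Nvznf845 and sox2 depended on the pool. The ratio of Nvznf845 to sox2 TPM was 0.880, 0.423, 1.72 and 1.65 in shRNA replicates 1 to 4, against 0.688, 0.520, 1.52 and 1.53 in control replicates 1 to 4. In replicates 3 and 4 Nvznf845 exceeded sox2 in 4 of 4 libraries, at 1.52 to 1.72 times its TPM, and in replicates 1 and 2 it did so in 0 of 4, at 0.423 to 0.880 times. The ratio in a shRNA library was thus nearer to that of its same-numbered control than to the ratios across the prefixes.

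Set against the other genes, Nvznf845 was among the more variable and sox2 among the steadier. The SD of log2 CPM over the 4 libraries was 1.17 in shRNA and 1.14 in control libraries for Nvznf845, against medians over all genes tested of 0.59 and 0.61. Of all genes tested, 88.5% in shRNA and 84.7% in control libraries had a smaller SD than Nvznf845, and among the 3067 genes of similar level the control share was 86.2%. For sox2 the SD was 0.28 in shRNA and 0.38 in control libraries, with 16.1% and 25.6% of genes below it. Almost all of the Nvznf845 variation ran with the replicate number, which took 98.3% of the sum of squares of log2 CPM, against 90.8% for sox2 and a median of 89.1% over all genes. For NvfoxE-like the replicate number took 28.7% and the treatment 68.7%. The SD of the 4 same-numbered differences of Nvznf845 was 0.30, near the median of 0.28 over all genes (53.2% of genes had a smaller one), and that of sox2 was 0.18 (28.7%).

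**Figure D3:**
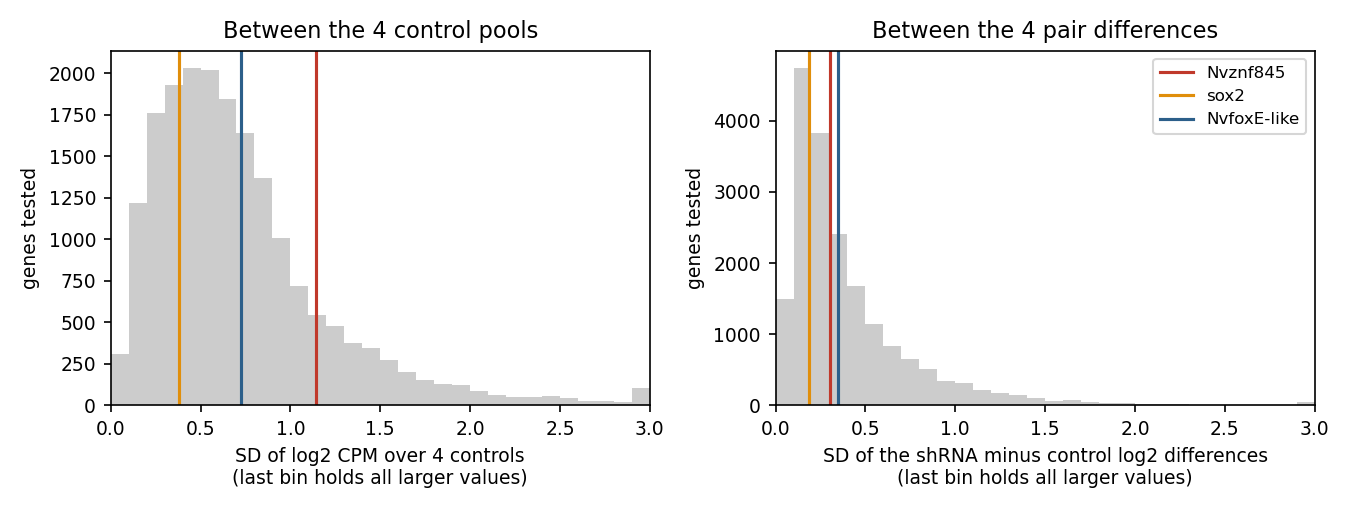
SD of log2 CPM over the 4 control libraries, and SD of the 4 same-numbered differences, for all genes tested (histograms) with Nvznf845, sox2 and NvfoxE-like marked by lines. Nvznf845 lies in the upper tail among the controls (1.14, against a median of 0.61) and near the middle for the pair differences (0.30, against a median of 0.28).

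With NvfoxE-like shRNA no change of Nvznf845 was called. The log2 fold change of shRNA over control in the fit without a block was 0.0015 ± 0.65 (SE, n = 4 each; edgeR's quasi-likelihood test, adjusted p = 1.00), and its 95% interval of -1.48 to 1.48 covers levels from 0.359 to 2.79 times the control. This fit called 0 of 19002 genes (0%) in either direction, NvfoxE-like included (-1.63 ± 0.40, adjusted p = 1.00). At an unadjusted p under 0.05 with a change of about 1.5-fold or more, 231 genes were lower and 75 higher. DESeq2, run on all genes with a count, called 47 lower and 9 higher. Calls used the study's thresholds, which are an adjusted p no higher than 0.05 and a change of about 1.5-fold or more in either direction.

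With the replicate number as a block, which compares each shRNA library with its same-numbered control, the bound was much narrower. The log2 fold change of Nvznf845 was 0.025 ± 0.12 with a 95% interval of -0.24 to 0.29, or 0.844 to 1.23 times the control, and no change was called (adjusted p = 0.962). The interval lies inside the 1.5-fold limit, a result that rests on pairing by number. The fit with the block called 203 genes lower (1.07%) and 40 higher (0.211%), and NvfoxE-like fell by 1.57 on the log2 scale (adjusted p = 0.000539). With the prefix as a covariate in place of the block, the interval of Nvznf845 was -0.68 to 0.85, past the limit. The 4 same-numbered log2 ratios of Nvznf845 in CPM were 0.46, -0.23, -0.11 and -0.042 for replicates 1 to 4, so that shRNA was higher in 1 of 4 pairs and lower in the others. In TPM it was higher in 2 of 4 pairs. The pair ratios ran from 0.853 to 1.37, a range that is an exact interval of 87.5% for the median ratio. On log2 CPM the exact permutation test (two-sided, 70 assignments, smallest possible p 0.0286) gave p = 1.00. Exact sign flips of the 4 pairs, whose smallest possible p is 0.125, also gave p = 1.00.

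For sox2 no change was called either. Its log2 fold change was -0.096 ± 0.27 without the block (95% interval -0.70 to 0.51, or 0.614 to 1.43 times the control, adjusted p = 1.00). With the block it was -0.082 ± 0.10 (95% interval -0.31 to 0.15, or 0.806 to 1.11 times the control, adjusted p = 0.815), again inside the 1.5-fold limit. The same-numbered log2 ratios in CPM were 0.11, 0.027, -0.30 and -0.15 for replicates 1 to 4, higher with shRNA in 2 of 4 pairs, with ratios of 0.811 to 1.08. The exact permutation test gave p = 0.714 and the exact sign flips p = 0.50 (both two-sided). An interval inside the limit was common: with the block, 11025 of the 19002 genes (58.0%) had one, and without it 1147 (6.04%). Changes of either gene within its 95% interval were not excluded by these pools, and the smallest detectable change was not computed.

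**Figure D4:**
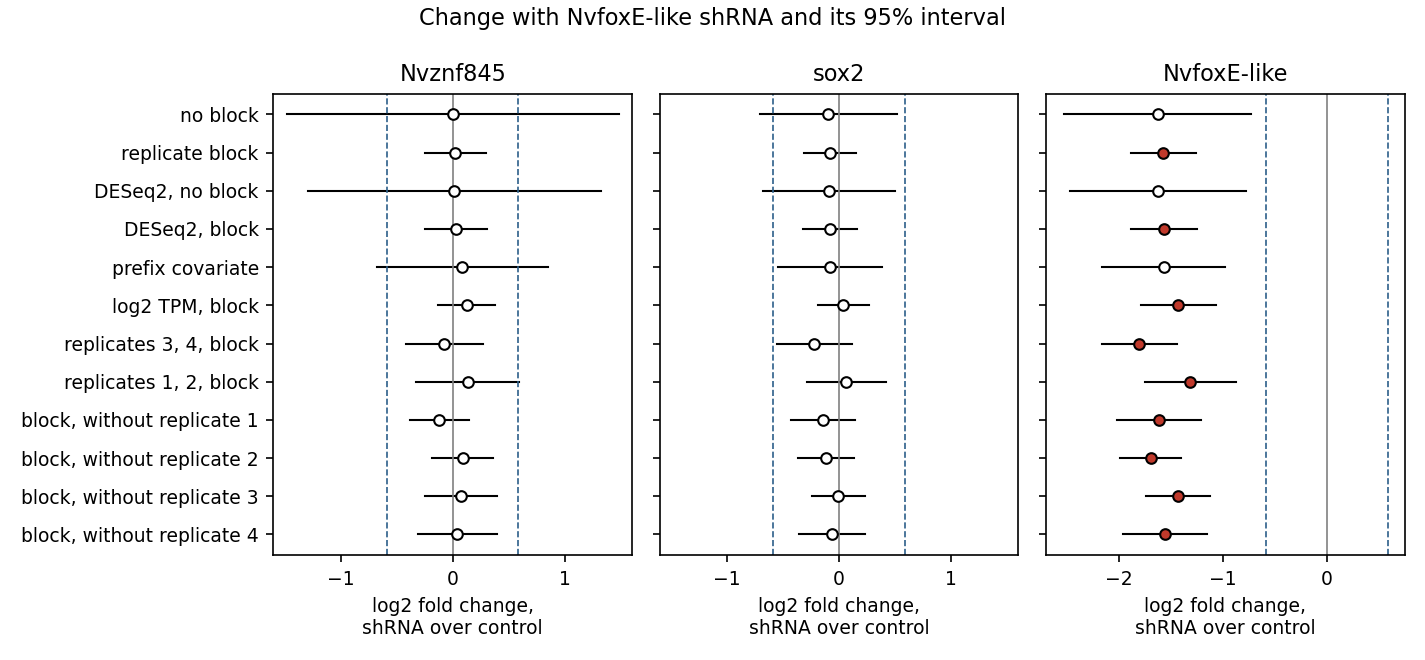
Log2 fold change of shRNA over control with its 95% interval for Nvznf845, sox2 and NvfoxE-like under the fits with and without the replicate block (edgeR and DESeq2), with the prefix as a covariate, on log2 TPM, within each prefix and with each replicate left out, with dashed lines at the 1.5-fold limit in both directions and filled points for called changes. For Nvznf845 the interval narrows from -1.48 to 1.48 without the block to -0.24 to 0.29 with it, and no point of Nvznf845 or sox2 is filled.

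Other cnidocyte transcription factors were called in the fit with the block, in both directions. Of the 13 further factors with an identifier, all tested, the fit without a block called 0 lower and 0 higher. At an unadjusted p under 0.05 with a change of about 1.5-fold or more, 4 were lower and 2 higher, beside 231 and 75 of all 19002 genes tested. DESeq2 without the block called 2 and 0 of the factors, beside 47 and 9 of all genes with a count. With the block, 2 of the 13 factors were lower and 2 higher, beside 1.07% and 0.211% of all genes tested, and 9 were not called. The median log2 fold change of the 13 was -0.18, against 0.017 over all genes. The study's collection also marks 4 of the 13 as dependent on NvfoxE-like, both lower factors among them, a mark made from these same libraries, so that the count is not independent evidence. Cnido-jun, a cnidocyte paralog of the bZIP factor Jun, fell by 1.99 (adjusted p = 0.00118), and GFI1B-like3, a zinc-finger gene of the GFI family, fell by 2.70 (adjusted p = 0.000633). Coup-like2, a nuclear receptor gene, was higher by 0.83 (adjusted p = 0.0474), and foxL2, a forkhead gene, by 0.69 (adjusted p = 0.0287). NvpaxA, which acts downstream of Nvznf845, had a log2 fold change of 0.047 ± 0.18 with the block and was not called (adjusted p = 0.950).

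The study's collection marks 27 genes besides sox2 as dependent on Nvznf845, from a knockdown not analysed here. Of these, 25 carry an identifier and 23 were tested. With the block, 12 were lower with NvfoxE-like shRNA and 2 higher, beside 1.07% and 0.211% of all genes tested, 9 were not called, and the median log2 fold change was -0.80 against 0.017 over all genes tested. The study marked 8 of the 23 as dependent on NvfoxE-like too, from these same libraries, and all 8 were among the lower genes, so the count and the median are not independent evidence of a direction. Of the 15 without that mark, 4 were lower, 2 were higher and 9 were not called, with a median of -0.40. The lack of the mark also came from these libraries, so these values are not independent evidence either. All 6 capsule genes are in the list. The minicollagen genes ncol1, ncol4 and Ncol and the gene mcol1 were lower (-0.84, -0.80, -1.89 and -0.95). The minicollagen gene ncol3 was not called (0.068 ± 0.13, adjusted p = 0.895), and Ngal was under the 1.5-fold limit (-0.54 ± 0.097, adjusted p = 0.0256). Without the block 0 of the 23 tested genes were called in either direction. At an unadjusted p under 0.05 with a change of about 1.5-fold or more, 9 of the 23 were lower and 2 higher, beside 231 and 75 of all 19002 genes tested. DESeq2 without the block called 5 and 0 of the list, beside 47 and 9 of all genes with a count. Nvznf845 itself and sox2 were called in none of these fits.

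In the controls, where NvfoxE-like was not targeted, the 3 genes ordered the pools alike on the TPM scale. Replicate 2 was lowest, followed by replicates 1, 4 and 3, for Nvznf845, sox2 and NvfoxE-like. This order was common, since 8109 of the 19002 genes tested (42.7%) shared it. In CPM both members kept it, with 26.1% of all genes, while NvfoxE-like had replicates 3 and 4 exchanged (46.7 CPM in replicate 4 and 45.5 CPM in replicate 3), an order held by 7.11% of genes. With 4 control libraries no correlation is given. The ratio of Nvznf845 to NvfoxE-like TPM was 0.962, 0.965, 1.83 and 1.55 in control replicates 1 to 4, and that of sox2 to NvfoxE-like was 1.40, 1.86, 1.20 and 1.01. Between the highest and the lowest control, NvfoxE-like differed by 2.95 times in CPM, more than sox2 (1.87) and less than Nvznf845 (5.38). Nvznf845 therefore took a larger share relative to NvfoxE-like in replicates 3 and 4, and sox2 a smaller one.

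**Figure D5:**
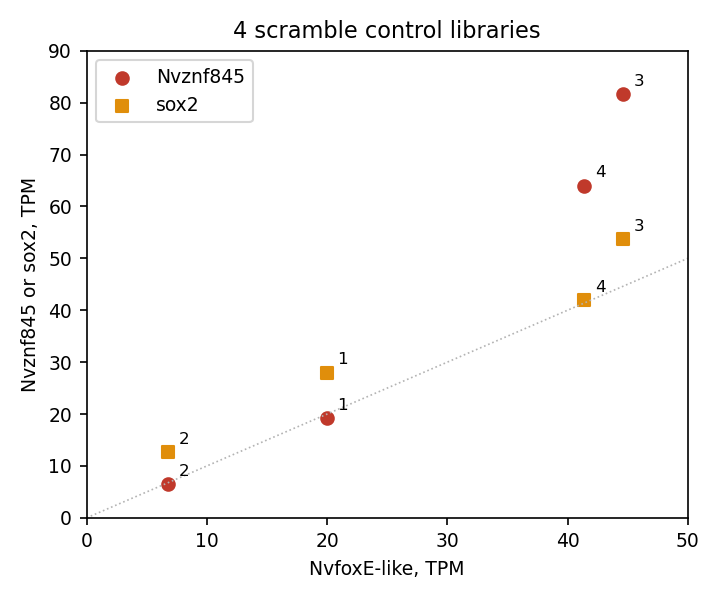
TPM of Nvznf845 and sox2 against TPM of NvfoxE-like in the 4 control libraries, each point labelled with its replicate number and a dotted line where both levels are equal. All 3 genes are lowest in replicate 2 and highest in replicate 3, an order that 42.7% of all genes tested share.

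The pools were then compared by library name prefix. Nvznf845 was at 73.6 ± 8.83 TPM in LA20_3 libraries (replicates 3 and 4) and 14.7 ± 10.1 TPM in LA19_2 libraries (replicates 1 and 2), and sox2 at 45.9 ± 5.73 TPM in LA20_3 and 21.5 ± 9.08 TPM in LA19_2 libraries (SD, n = 4 libraries each, 2 of each treatment). On counts with treatment as a covariate, Nvznf845 was higher in LA20_3 by 1.64 ± 0.35 (SE) on the log2 scale, or 3.11-fold (95% interval 0.85 to 2.42, adjusted p = 0.00655). Sox2 was not called (0.37 ± 0.21, 95% interval -0.10 to 0.83, adjusted p = 0.154). Such calls were common, with 26.9% of all genes tested called higher and 25.4% lower in LA20_3. The CPM of Nvznf845 did not overlap between the prefixes, which held for 28.6% of genes in this direction. The TPM scale moved the median gene by 0.74 on the log2 scale, so relative to that median Nvznf845 was higher by 1.85 and sox2 by 0.45.

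Same-numbered libraries deviated together and are not independent for this contrast. When both libraries of a number were summed, leaving 2 sums against 2, the difference of Nvznf845 kept its size (1.63) and lost its call (adjusted p = 0.0720), and only 12 of 20484 genes (0.0586%) were called. The same was seen without replicate 3, where Nvznf845 had an adjusted p of 0.0953, and in control libraries alone (1.87, adjusted p = 0.107). Without replicate 1 sox2 was called (0.66, adjusted p = 0.00739). It was also called on log2 TPM with limma (1.19, adjusted p = 0.0154), a scale on which the median gene moved by 0.74. With same-numbered libraries summed, sox2 was not called (0.38, edgeR's quasi-likelihood test, adjusted p = 0.451). In the fit on unsummed libraries, 4 of 6 capsule genes were called lower in LA20_3 and 0 higher. The share of all genes tested was 25.4% lower and 26.9% higher. The median log2 difference of the capsule genes was -0.99, against -0.00075 over all genes. That fit counts same-numbered libraries as independent, and no value from the summed fit is given for the capsule genes, so no direction is concluded. The summed TPM of the capsule genes overlapped, at 1486 to 2750 in LA20_3 and 1768 to 2587 in LA19_2 libraries, and no capsule gene was at 0. Their part in the levels of Nvznf845 and sox2 was not tested. The response to shRNA was not shown to differ by prefix for either gene, with an interaction of -0.34 ± 0.72 for Nvznf845 and -0.31 ± 0.45 for sox2 (edgeR's quasi-likelihood test, adjusted p = 1.00 for both).

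The published cnidocyte genes were not among the genes whose pattern was most like that of Nvznf845 or sox2. Likeness was measured as the root mean square difference of log2 CPM over the 8 libraries, each gene centred on its own mean, with smaller values for a closer pattern. For Nvznf845 the nearest genes of the collection were TX60B-like3 (0.37), ATF2-like1 (0.44) and NvpaxA (0.57), against a median of 1.08 over all genes and 0.74 for sox2. For sox2 they were ATF2-like1 (0.36), ANTR2-like (0.41) and NvpaxA (0.42), against a median of 0.65. ATF2-like1, a bZIP factor gene, was at 38.9, 23.8, 65.4 and 57.2 CPM in shRNA replicates 1 to 4, against 47.1, 22.9, 69.0 and 67.1 CPM in control replicates 1 to 4, and so was low in replicate 2 and high in replicates 3 and 4 as Nvznf845 was. NvfoxE-like was farther from both, at 0.96 from Nvznf845 and 0.79 from sox2, in a measure that includes its own shRNA libraries. Many genes outside the collection were nearer, since TX60B-like3 ranked 1633 among 19001 genes for Nvznf845 and ATF2-like1 ranked 3362 for sox2. The nearest were NV2.25143 (0.070) and NV2.23325 (0.082) for Nvznf845 and NV2.4229 and NV2.4317 (both 0.072) for sox2.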

How the data were processed

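Poly(A) RNA of 8 pools of injected gastrulae was sequenced as 150 bp paired-end reads, with an RNA integrity number of at least 8.0 per the labels. The authors quantified reads with Salmon against Nvec200 transcripts and deposited a table of 35819 transcripts for each library. Its estimated counts, as deposited, need not be whole, since reads that match several transcripts are shared out. The deposited TPM values were scaled by Salmon within each library. Salmon's version, strand and bias options are not given in the sources used.

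Counts and TPM were summed per gene and the counts rounded. Of 24520 genes, 19002 passed edgeR's filterByExpr (minimum count 10), both members included. Groups were compared with edgeR 4.0.16 (R 4.3.3), TMM scaling, the quasi-likelihood test and Benjamini-Hochberg adjustment over all genes tested. Standard errors and intervals came from the F statistic. Calls needed an adjusted p no higher than 0.05 and a change of about 1.5-fold or more. DESeq2 1.42.0 and limma 3.58.1 on log2(TPM + 0.1) were alternatives, as was the replicate number as a block. Same-numbered libraries deviated together (r = 0.41, 0.83, 0.83 and 0.69 across genes), and the methods describe replicates as pairs, so the block value is given beside each result. Libraries that share a prefix also deviated together across numbers, with r = 0.43 and 0.47 in LA19_2 and 0.69 and 0.56 in LA20_3. The r values cannot separate this from pairing by number. Spread and likeness used log2 CPM with a prior count of 2. The edgeR fits with and without the block were run on simulated counts in which same-numbered libraries shared their means. A pass was required of the fit with the block only. That setting takes the pairing as given and does not test it.

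The named genes are both members, NvfoxE-like, the factors of the collection called in either fit, and the 3 collection genes and 2 other genes nearest to each member. FoxA, coup-like1, NvpaxA and the capsule genes are named as neighbours in level or as pathway genes, chosen after their values were seen. The collection holds 42 published cnidocyte genes, 38 with an identifier of the tables. The members and lists were chosen with earlier results of these data known. The RefSeq table (jaNemVect1.1) matched 0 identifiers, so no coordinates or sequences are given. Nothing in the labels says more of how the pools were made, so p-values measure only the spread between them.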

Additional observations from a re-analysis of the deposited data

Results flagged for a closer look

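Among 10 groups of 4 values checked for a value far from the rest, of which chance flags about 1 in 20, sox2 CPM in shRNA libraries stood out, with replicate 2 at 23.2 against 33.0 to 34.9 in the others (gap over range 0.841, just past the critical value). The shares of the 2 Nvznf845 transcripts in shRNA libraries were the other case, which is a single fact for both transcripts: the long transcript held 3.95% in replicate 2 and 0.989% to 1.48% in the others (gap over range 0.834), from 15.8 counts.

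The same-numbered log2 ratios of sox2 were negative in both LA20_3 pairs and positive in both LA19_2 pairs, with means that differed by -0.29 (LA20_3 minus LA19_2). The interaction itself, tested with edgeR's quasi-likelihood test, was -0.31 ± 0.45 without the block and -0.30 ± 0.21 with it (adjusted p = 1.00 in both).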

How the results depend on the processing

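Neither Nvznf845 nor sox2 was called for shRNA against control under any of the 35 settings run for each, and the smallest adjusted p was 0.574 for Nvznf845 and 0.790 for sox2. With values this near 0 the sign was not fixed. Nvznf845 was at -0.00074 with a length offset, -0.075 within LA20_3 and -0.073 there with the replicate block, and leaving out a replicate or a library gave -0.30 to 0.37 without the block and -0.12 to 0.089 with it. Sox2 was at 0.039 on log2 TPM with and without the block, a scale on which the median gene stood at 0.12 and sox2 at -0.086 relative to it, 0.075 within LA19_2 and 0.065 there with the block, and -0.24 to 0.042 with a replicate or library left out. The short Nvznf845 transcript was at 0.0047 with the block. Within LA19_2 with the block the interval of Nvznf845 was -0.33 to 0.59, just past the limit. Over the 35 settings, the interval lay inside the limit in 13 for Nvznf845 and in 14 for sox2.

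Calls depended on the replicate block. Genes lower and higher numbered 0 and 0 without it, 47 and 9 by DESeq2, 203 and 40 with the block, 262 and 66 by DESeq2 with the block, and with the block and without replicates 1, 2, 3 and 4 in turn 132, 237, 174 and 127 lower and 13, 34, 35 and 23 higher. Of the cnidocyte factors, 2 lower and 2 higher were called with the block, 2 lower by DESeq2, and 3 lower and 2 higher by DESeq2 with the block. Of the genes marked as Nvznf845 dependent these were 12 and 2, 5 lower, and 13 and 2. NvfoxE-like, at -1.63 and not called without the block, was called with it at -1.57 (adjusted p = 0.000539), by DESeq2 with the block at -1.56, with the block and RLE, no filter or a length offset at -1.57, on log2 TPM at -1.43, without TMM at -1.55, within LA19_2 at -1.31 and LA20_3 at -1.80, and at -1.62, -1.69, -1.43 and -1.56 without replicates 1, 2, 3 and 4 in turn.

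The prefix difference of Nvznf845 was not called in controls alone (1.87), with same-numbered libraries summed (1.63) or without replicate 3 (range without a replicate 1.14 to 2.40). That of sox2 was called on log2 TPM (1.19, where the median gene moved by 0.74) and without replicate 1 (0.11 to 0.66). The cause of these shifts was not tested. The summed libraries, the fits without TMM, the block within a prefix and the block together with another scaling, filter or unit were chosen after seeing the data. Counting error alone, at the mean count of each group, was 3.14% to 3.69% for the 2 genes. It was larger in low libraries. The 177 counts of Nvznf845 in shRNA replicate 2 gave 10.8 CPM, with a 95% interval of 9.30 to 12.6 for counting error only.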
